A study of Mus musculus with 6 samples.

Results

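The genes of polyamine metabolism were followed in MIN6 cells, a β-cell line established from a mouse insulinoma. The set holds 10 of the 16640 genes counted in each library: *Sat1*, *Odc1*, *Amd1*, *Srm*, *Sms*, *Azin1*, *Oaz1*, *Oaz2*, *Smox* and *Paox*. They were chosen by gene symbol with the read counts of these libraries already known, for how replicate 3 compared with replicates 1 and 2, so this contrast is described here without a test. Control cells and *Thada*-activated cells were each sequenced in 3 libraries, numbered 1, 2 and 3. Cells of both conditions had received dCas9 by lentivirus, and the activated line was made with dCas9-VP64 under puromycin followed by a second lentivirus for sgRNA-MS2-P65-HSF1 under G418, with a guide to the *Thada* promoter. The control cells had received dCas9 with a non-targeting sgRNA in place of the *Thada* guide. The activated cells were a stable line from drug selection, and no single-cell cloning of it is described. Values of the 3 libraries of a condition are given in the order of replicates 1, 2 and 3. Depth was alike, with 17272834, 17166511 and 17689611 counts in control cells and 17727004, 17385036 and 17224631 counts in activated cells.

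Polyamines are small, positively charged molecules that bind nucleic acids and are needed for growth and for protein synthesis. Ornithine decarboxylase makes putrescine, which spermidine synthase and then spermine synthase extend with aminopropyl groups that come from decarboxylated S-adenosylmethionine. Antizymes hold ornithine decarboxylase down, and acetylation by spermidine/spermine N1-acetyltransferase sends the longer polyamines to oxidation or out of the cell. In pancreatic islets, polyamines are concentrated in the β-cells, where they are linked to insulin synthesis.

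Levels are given as normalised read counts (CPM, counts scaled to the library size after TMM normalization), and as FPKM, which also divides by gene length, where genes are compared with each other. *Thada* itself was at 28.1, 28.9 and 17.2 CPM in control cells and at 57.3, 56.2 and 49.1 CPM in *Thada*-activated cells. Every activated library thus lay above every control library for the targeted gene. Its log2 fold change was 1.13 (SE 0.22, edgeR adjusted p = 1.00), and 1.15 (SE 0.099, adjusted p = 0.00041) when replicate was fitted as a block. The DESeq2 Wald test without the block also gave 1.13 (SE 0.25), with an adjusted p of 0.018.

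The β-cell label was checked against 10 marker genes. Their summed level was 105113, 93513 and 128759 CPM in control cells and 99642, 97757 and 111418 CPM in activated cells, most of it from *Ins2*. *Slc2a2*, the glucose transporter of mouse β-cells, was the exception, at 0.0574 to 0.512 CPM. *Ins2* was at 64432, 56429 and 103050 CPM in control cells and at 64296, 62902 and 81917 CPM in activated cells. Replicate 3 libraries of both conditions therefore had more insulin mRNA than the other 4, and they stood apart from them across the transcriptome. *Ins1* followed *Ins2*, while *Iapp*, *Mafa*, *Pdx1*, *Nkx6-1*, *Slc30a8* and *Ucn3* were lower in both replicate 3 libraries than in the other 4. For this reason each polyamine gene is given by library, within replicate numbers as well as between conditions.

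*Sat1* encodes the acetyltransferase that starts polyamine breakdown. It lies on the minus strand of chromosome X of GRCm38 (chrX:155213132-155216449, gene 20229). Its level was 16.5, 17.8 and 89.8 CPM in control cells and 18.5, 18.6 and 89.9 CPM in activated cells. Both replicate 3 libraries were far above the other 4, and within each replicate number the conditions lay close together. In replicate 3 the level was 5.23 times that of replicates 1 and 2 in control cells and 4.83 times in activated cells. RNA came from bulk cultures, in which fewer cells of a type and less RNA per cell cannot be told apart. Averaged over the conditions, the log2 difference of *Sat1* was 2.33, at rank 32 from the highest among the 12516 genes that passed the filter on low counts. No other member came near it, and the next was *Paox* at 0.75 and rank 1351.

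*Paox* encodes the peroxisomal oxidase that acts on acetylated polyamines, the step after *Sat1*. It was at 9.08, 8.79 and 16.4 CPM in control cells and at 11.3, 8.97 and 15.6 CPM in activated cells. Here too replicate 3 was the highest in each condition, at 1.83 times replicates 1 and 2 in control and 1.55 times in activated cells. In GENCODE the gene (chr7:140115799-140137224, plus strand) overlaps *Echs1* on the opposite strand, which ends at 140116476. The RefSeq promoter windows of *Paox* lie beyond that overlap and end at 140125656 and 140125684. The sources used here do not say whether counting used strand, so the *Paox* values are uncertain where the longer span was counted. *Smox*, the spermine oxidase gene, had 2, 0 and 0 counts in control cells and 1, 1 and 1 counts in activated cells. These counts are all below 3, the floor used here, which corresponds to 0.169 to 0.176 CPM. *Smox* mRNA was thus not detectable above the floor, and *Smox* was the only member that was not tested. Breakdown of polyamines was represented at the mRNA level by *Sat1* and *Paox*.

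*Odc1* encodes ornithine decarboxylase, the enzyme that makes putrescine. Its level was 152, 151 and 131 CPM in control cells and 144, 154 and 132 CPM in activated cells. Both replicate 3 libraries were lowest, at 0.868 and 0.883 times the level of replicates 1 and 2 in control and activated cells. *Amd1* encodes S-adenosylmethionine decarboxylase, the source of the aminopropyl groups. It was at 121, 121 and 89.0 CPM in control cells and at 118, 119 and 88.7 CPM in activated cells, so replicate 3 was at 0.737 and 0.750 times the others. *Amd2* is a near-identical copy, and its counts made up 0.426% to 1.87% of the sum of both genes in a library. How reads were shared between the copies is not stated, which makes *Amd1* and *Amd2* uncertain.

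The synthases differed from each other. *Srm*, which encodes spermidine synthase, was at 60.7, 59.7 and 43.6 CPM in control cells and at 67.3, 74.2 and 40.4 CPM in activated cells. Replicate 3 was lower in both conditions, at 0.725 times the others in control and 0.573 times in activated cells. *Sms*, which encodes spermine synthase and lies on chromosome X like *Sat1*, was at 23.3, 24.6 and 25.1 CPM in control cells and at 25.7, 25.4 and 36.8 CPM in activated cells. For *Sms* the activated replicate 3 library stood alone, at 1.44 times activated replicates 1 and 2, against 1.05 times in control. With 1 replicate 3 library per condition, this difference between the conditions was not tested. The ratio of *Sms* to *Srm* in FPKM was 0.139, 0.148 and 0.209 in control cells and 0.138, 0.124 and 0.334 in activated cells, so it was highest in replicate 3 of each condition.

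Antizymes bind ornithine decarboxylase and lead it to the proteasome, and the antizyme inhibitor encoded by *Azin1* binds antizymes in its place. *Oaz1* was at 350.4, 311 and 361 CPM in control cells and at 375, 361 and 399.8 CPM in activated cells. The libraries overlapped for *Oaz1*, and replicate 3 was at 1.09 times the others in each condition. *Oaz2* was at 142, 141 and 176 CPM in control cells and at 132, 129.8 and 200.2 CPM in activated cells. Replicate 3 was the highest for *Oaz2*, at 1.24 times the others in control and 1.53 times in activated cells. *Azin1* was at 139.9, 155 and 118 CPM in control cells and at 141, 132 and 101 CPM in activated cells. For the inhibitor, replicate 3 was thus the lowest in each condition, at 0.804 and 0.738 times the others. *Azin1* overlaps an annotated antisense gene, *Gm49077*, and its counts carry the same uncertainty about strand as those of *Paox*.

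**Figure D1:**
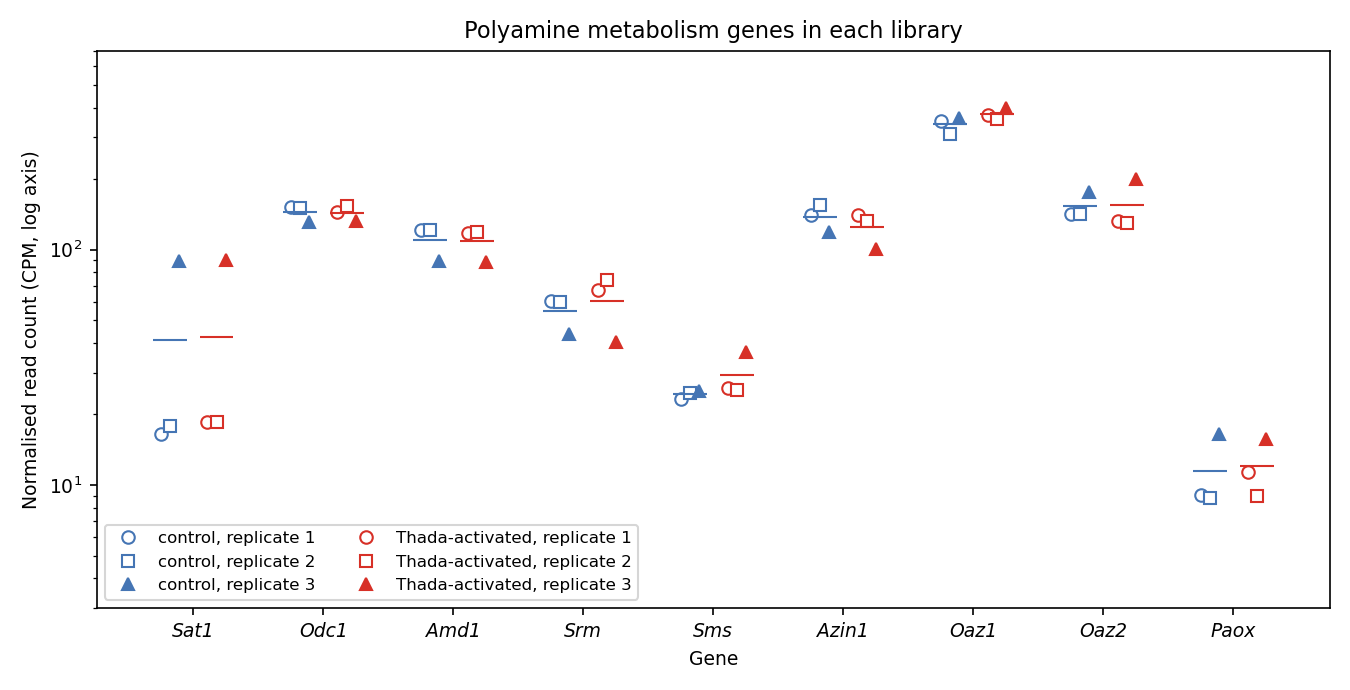
Normalised read count (CPM, log axis) of the 9 tested polyamine genes in each library. Blue is control and red is *Thada*-activated, circles, squares and filled triangles are replicates 1, 2 and 3, and the bars are the means of 3 libraries. The *Sat1* triangles sit at 89.8 and 89.9 CPM, above 4 libraries between 16.5 and 18.6 CPM.

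Of the 9 tested members, 3 (*Sat1*, *Oaz2* and *Paox*) had both replicate 3 libraries above the other 4, as did 35.9% of all tested genes. Another 4 (*Odc1*, *Amd1*, *Srm* and *Azin1*) had both below, again against 35.9% of all tested genes. Such a split was therefore common in these libraries, and the count of members is read against that background. A difference over 1.5-fold upwards in both conditions was seen for *Sat1* and *Paox*, or 2 of 9, where 12.5% of all tested genes had it. Downwards it was seen for 0 of 9 members and 12% of all tested genes. The median log2 difference of replicate 3 was 0.12 over the members and 0.0014 over all tested genes, and the median of its absolute size was 0.43 and 0.38.

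Ratios between genes of the same library do not depend on library size. The FPKM ratio of *Sat1* to *Odc1* was 0.248, 0.275 and 1.61 in control cells and 0.295, 0.277 and 1.58 in activated cells. *Sat1* was thus below *Odc1* in 4 libraries and above it in both replicate 3 libraries. The summed FPKM of *Oaz1* and *Oaz2* over that of *Odc1* and *Azin1* was 4.82, 4.27 and 5.995 in control cells and 5.20, 4.92 and 6.91 in activated cells. Antizyme mRNA exceeded the sum of *Odc1* and *Azin1* mRNA in each library, and by the widest margin in replicate 3 of each condition.

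Per length, *Oaz1* was the most abundant member, with means of 370.3 ± 24.4 FPKM (SD, n = 3) in control and 411 ± 19.9 FPKM (SD, n = 3) in activated cells. *Oaz2* came next, with 90.3 ± 11.1 and 91.6 ± 24.0 FPKM, and no other member exceeded *Oaz2* in any of the 6 libraries. *Odc1* had 60.3 ± 5.11 and 60.2 ± 4.39 FPKM and *Srm* had 46.6 ± 8.38 and 51.8 ± 15.3 FPKM, and their intervals overlapped in activated cells, though *Odc1* was above *Srm* in each library. *Amd1* had 35.9 ± 6.17 and 35.7 ± 5.42 FPKM, and *Azin1* had 32.4 ± 4.41 and 29.5 ± 4.73 FPKM, with *Amd1* above *Azin1* in each of the 6 libraries. *Sms* (7.49 ± 0.321 and 9.11 ± 2.08 FPKM) and *Paox* (7.18 ± 2.62 and 7.63 ± 2.07 FPKM) were close together near the bottom, above *Smox*. The place of *Sat1* depended on the replicate. In replicates 1 and 2 of both conditions it held place 7, with 15.7 to 17.9 FPKM, and in replicate 3 it held place 3, with 87.8 FPKM in control and 88.0 FPKM in activated cells.

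Between conditions, edgeR's quasi-likelihood test called 0 of the 9 tested members and 0% of the 12516 tested genes. A call needed both a fold change over 1.5 and a p under 0.05 after Benjamini-Hochberg adjustment over all tested genes. When replicate was added as a block, the calls came to 19 genes (0.152%), with 0 of the members among them. DESeq2 called 0 members with and without the block, where it called only 5 genes in all without the block and 15 with it. At an unadjusted p under 0.05, edgeR found 0 members without the block, against 0.807% of all tested genes. With the block, 3 were found (*Sms*, *Azin1* and *Oaz1*), against 10.4% of all tested genes. The study describes its in vitro work in general as repeated in independent experiments, while the labels do not say that the libraries of a condition came from separate cultures. The p-values then measure only the spread between these libraries, which may be technical.

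For *Sat1*, the mean was 41.4 ± 42.0 CPM (SD, n = 3) in control and 42.3 ± 41.2 CPM (SD, n = 3) in activated cells. The log2 fold change of activated over control cells was 0.03 (SE 0.93, edgeR adjusted p = 1.00). Nearly all of this spread lay between replicate numbers, since the block brought the standard error to 0.075 around an estimate of 0.06 (adjusted p = 0.809). Within replicates 1, 2 and 3 the log2 differences were 0.17, 0.07 and 0.0013. The conditions thus differed in *Sat1* by much less than replicate 3 differed from the others.

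*Sms* was the only member whose conditions did not overlap, with a highest control value of 25.1 CPM and a lowest activated value of 25.4 CPM, and 5.4% of all tested genes did not overlap either. Its means were 24.3 ± 0.962 CPM (SD, n = 3) in control and 29.3 ± 6.48 CPM (SD, n = 3) in activated cells. The log2 fold change was 0.27 (SE 0.17, edgeR adjusted p = 1.00), and 0.26 (SE 0.10, adjusted p = 0.398) with the block. Most of it came from replicate 3, where the log2 difference was 0.55, against 0.15 and 0.05 in replicates 1 and 2.

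*Oaz1* was higher in activated cells within each replicate number, by log2 differences of 0.10, 0.21 and 0.15. The means were 341 ± 26.4 CPM (SD, n = 3) in control and 378 ± 19.8 CPM (SD, n = 3) in activated cells, and the libraries of the conditions overlapped. Its log2 fold change was 0.15 (SE 0.12, edgeR adjusted p = 1.00), with an adjusted p of 0.389 under the block. *Azin1* had log2 differences of 0.0098, -0.23 and -0.23 within replicates 1, 2 and 3. Its fitted log2 fold change was -0.14 (SE 0.17, edgeR adjusted p = 1.00), and the adjusted p was 0.466 with the block. Neither gene of the antizyme system passed the test.

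*Srm* went different ways within the replicate numbers, with log2 differences of 0.15, 0.31 and -0.11 in replicates 1, 2 and 3. Its means were 54.7 ± 9.59 CPM (SD, n = 3) in control and 60.6 ± 17.8 CPM (SD, n = 3) in activated cells, and the log2 fold change was 0.15 (SE 0.26, edgeR adjusted p = 1.00). In a fit of replicates 1 and 2 alone with the block, its log2 fold change was 0.23 (SE 0.069) with an adjusted p of 0.0367, below the fold change needed for a call. The adjusted p of *Srm* lay between 0.0367 and 1.00 over all alternatives. The estimates of the other members were small beside their errors. *Odc1* had a log2 fold change of -0.02 (SE 0.11), *Amd1* of -0.02 (SE 0.18), *Oaz2* of 0.0089 (SE 0.21) and *Paox* of 0.07 (SE 0.33), each with an edgeR adjusted p of 1.00.

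Counting signs, *Sat1*, *Sms* and *Oaz1* were higher in activated cells in all 3 replicate numbers, or 3 of 9 members against 16.3% of all tested genes. *Amd1* was lower in all 3, or 1 of 9 against 16.7%. For *Amd1* the sign in replicate 3 rested on a log2 difference of -0.0050, and it was lost with total counts, with FPKM and with library sizes that left out the 20 most abundant genes. These counts of signs are descriptions, and no test was made of them.

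**Figure D2:**
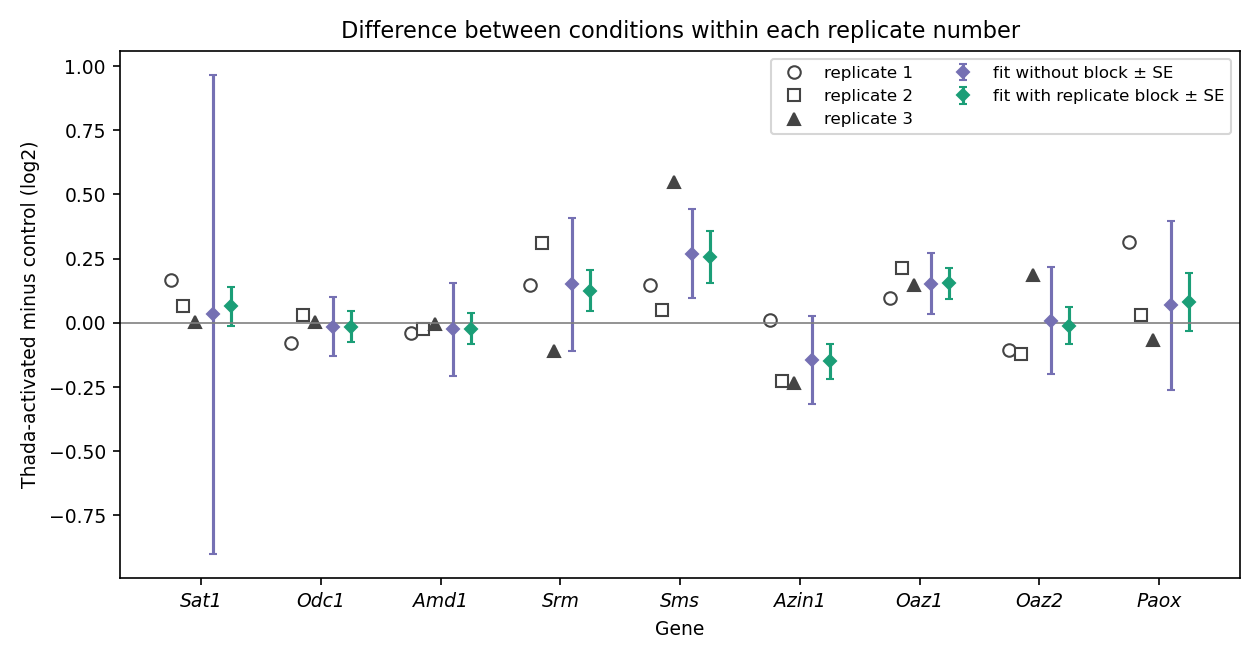
Log2 difference of *Thada*-activated minus control cells for the 9 tested polyamine genes. Circles, squares and filled triangles are replicates 1, 2 and 3, and diamonds are the estimates of edgeR with their standard errors, in purple without and in green with a block for replicate. The standard error of *Sat1* is 0.93 without the block and 0.075 with it.

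Further genes around the pathway were taken from 6 lists of 40 genes, of which 38 were in the table and 32 were tested. Between conditions, 0 of the 32 were called by edgeR without or with the block, against 0% and 0.152% of all tested genes. DESeq2 also called 0 of them, where it called 5 genes in all without the block and 15 with it. At an unadjusted p under 0.05, 0 of the 32 were found without the block and 4 with it, against 0.807% and 10.4% of all tested genes. Their median log2 fold change was -0.02, beside 0.03 for the members and -0.0040 for all tested genes. In replicate 3, 16 of the 32 had both libraries above and 8 had both below the other 4 libraries, against 35.9% and 35.9% of all tested genes. Over 1.5-fold in both conditions, 9 were higher and 4 lower, against 12.5% and 12% of all tested genes. The counts by list that follow stand against the same shares, and none of them was tested.

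Precursors of polyamines are ornithine, which comes from arginine, and S-adenosylmethionine, which methionine adenosyltransferase makes. Of the 8 tested genes of this list, 5 were above and 2 below in replicate 3. *Mat2a*, which encodes the catalytic subunit of that enzyme outside the liver, was at 177, 179 and 72.2 CPM in control cells and at 166, 166 and 78.0 CPM in activated cells. *Mat2b*, its regulatory subunit, was at 42.1, 43.7 and 74.8 CPM in control cells and at 47.8, 41.3 and 68.9 CPM in activated cells. The subunits thus went opposite ways, with replicate 3 at 0.406 and 0.471 times the others for *Mat2a* and at 1.74 and 1.55 times for *Mat2b*. *Oat*, the ornithine aminotransferase gene, varied little, from 93.3 to 110.2 CPM. Its conditions did not overlap, with a lowest control value of 97.4 CPM and a highest activated value of 96.4 CPM. This held for 1 of the 32 further genes, against 5.4% of all tested genes. *Azin2*, a relative of *Azin1* named after its values were seen, was at 1.93, 1.80 and 6.31 CPM in control cells and at 1.97, 2.07 and 6.31 CPM in activated cells. *Azin1* and *Azin2* therefore also differed in direction, from very different levels (30.9 and 1.90 FPKM over the 6 libraries).

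Methylthioadenosine, left over from each aminopropyl transfer, is returned to methionine by the salvage pathway. Of its 5 tested genes, 3 were above and 1 below in replicate 3. *Adi1*, the most abundant, lay between 138 and 157 CPM in all libraries. *Apip* was at 19.9, 20.4 and 11.8 CPM in control cells and at 19.1, 15.2 and 9.56 CPM in activated cells, and *Enoph1* was 1.58 and 1.56 times as high in replicate 3 of control and activated cells. Genes of the same salvage route thus differed from replicates 1 and 2 in both directions.

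Among 7 tested transport genes, 1 was above and 4 were below in replicate 3. *Atp13a3* and *Atp13a2*, which encode transporters that move polyamines out of endosomes and lysosomes, were at 0.818 and 0.570 times the others in control replicate 3 and at 0.833 and 0.686 times in activated replicate 3. *Slc3a2*, a subunit of amino acid transporters that is also linked to polyamine exchange, was at 244, 245 and 339.98 CPM in control cells and at 239.8, 248 and 241 CPM in activated cells. Only the control replicate 3 library was high for *Slc3a2*. *Slc7a1*, a carrier of arginine and ornithine named after its values were seen, was at 158, 151 and 68.3 CPM in control cells and at 151, 152 and 59.1 CPM in activated cells. Its replicate 3 libraries were at 0.442 and 0.390 times the others, the lowest folds of any tested transport gene on the list.

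Spermidine is also the donor for hypusine, a modified lysine of the translation factor eIF5A. *Eif5a* was at 291 to 320.1 CPM in control libraries and at 313 to 325 CPM in activated libraries. *Dhps* and *Dohh*, the genes of both hypusine-forming enzymes, had both replicate 3 libraries above the other 4, by 1.25 and 1.24 times in control and by 1.23 and 1.04 times in activated cells. The hypusination genes thus varied by less than *Sat1* or *Mat2a*.

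*Sat2*, a relative of *Sat1*, was at 8.73, 8.79 and 9.35 CPM in control cells and at 8.05, 7.71 and 14.8 CPM in activated cells. Replicate 3 was at 1.07 times the others in control and 1.87 times in activated cells. The FPKM ratio of *Sat1* to *Sat2* was 1.49, 1.59 and 7.71 in control cells and 1.78, 1.99 and 4.997 in activated cells, so the large difference belonged to *Sat1*. *Amd2* was at 0.398 to 1.72 CPM, and *Oaz3* was at or under 0.284 CPM and was not tested.

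MYC activates transcription of *Odc1* in many cells, and MAX is its partner. Of 6 tested genes of the family, 4 were above and 1 below in replicate 3. *Max* was at 0.851 and 0.779 times the others in control and activated replicate 3, *Mxi1* at 1.49 and 1.47 times and *Mnt* at 1.19 and 1.21 times. *Myc*, named after its values were seen, was at 5.62, 4.31 and 12.6 CPM in control cells and at 5.18, 6.10 and 11.8 CPM in activated cells. *Myc* and *Odc1* mRNA thus went opposite ways in replicate 3 of both conditions.

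**Figure D3:**
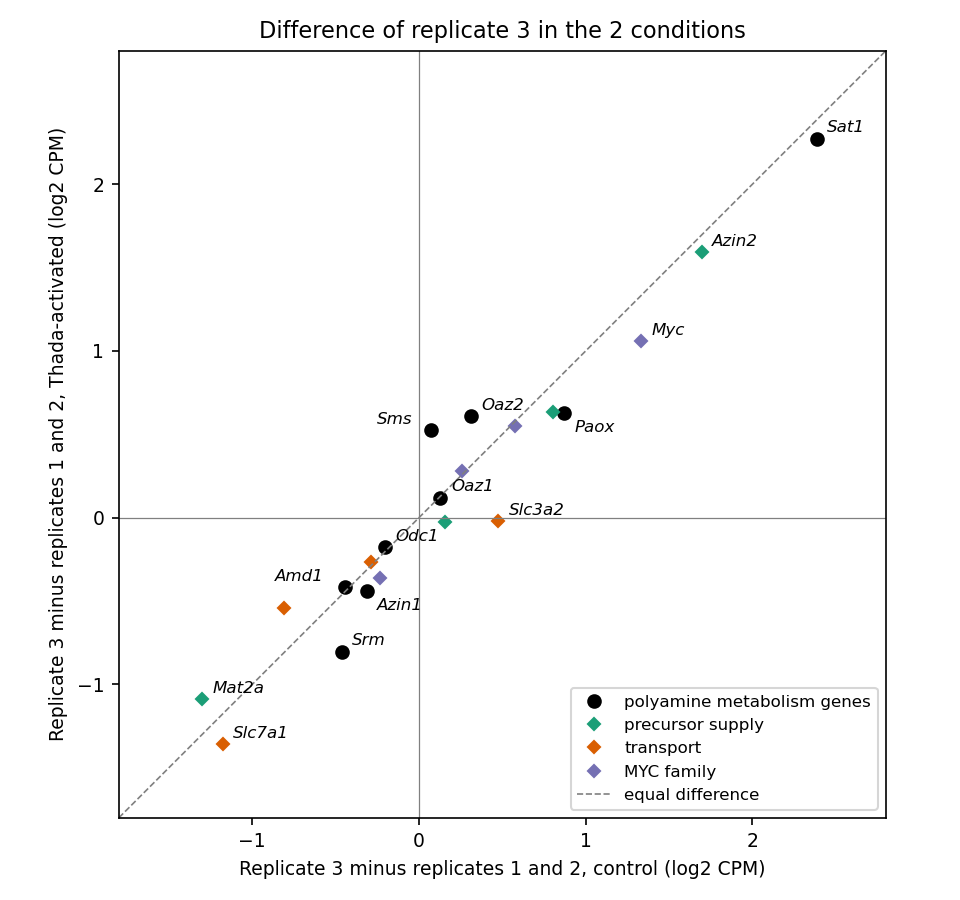
Log2 CPM of replicate 3 minus the mean of replicates 1 and 2, in control cells on the x axis and in *Thada*-activated cells on the y axis. Circles are the 9 tested polyamine genes and diamonds genes of precursor supply, transport and the MYC family that the text names, and the dashed line marks an equal difference in both conditions. *Sat1* lies highest, at 2.39 and 2.27.

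Among the genes whose profile over the 6 libraries was most like that of *Sat1*, by the root mean square distance of centred log2 CPM over 10715 candidates, were *Mmp17* (0.119), *Dhx58* (0.138), *Stac2* (0.144) and *Dbp* (0.147). *Mmp17* was at 5.51, 5.82 and 30.5 CPM in control cells and at 7.15, 7.53 and 30.1 CPM in activated cells. Replicate 3 was 3.71 to 5.94 times as high as the others for these 4 genes over both conditions. Because they were chosen for likeness to *Sat1*, their difference in replicate 3 is no separate finding.

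Markers of other cell types were also read. For the alpha cell list, 3 of 4 genes were in the table, and their sum was 1325, 1208 and 673 CPM in control cells and 1287, 1281 and 810.2 CPM in activated cells, nearly all from *Ttr*. *Gcg* of the same list was also lower in replicate 3, at 0.666 times the others in control and 0.926 times in activated cells. *Irx2* was higher in replicate 3, at 1.40 times the others in control and 1.42 times in activated cells. The delta cell sum was 156, 129 and 69.0 CPM in control cells and 143, 131 and 58.0 CPM in activated cells, from *Sst*, with *Hhex* at or under 1 count. *Ppy*, of the PP cell, was at 19.7, 17.8 and 27.9 CPM in control cells and at 22.5, 21.6 and 39.0 CPM in activated cells. The duct sum, from *Muc1* and *Krt19*, was 1.43 to 1.69 CPM in control cells and 2.82 to 3.38 CPM in activated cells, and 0 genes of the list were called. The sum for fibroblasts and mesenchyme, from *Col1a1* and *Col1a2*, was 2.64, 2.79 and 4.07 CPM in control cells and 3.04, 3.57 and 5.57 CPM in activated cells. *Col1a1* was higher in replicate 3, at 2.28 and 2.45 times the others in control and activated cells, while *Col1a2* was at 0.632 and 1.08 times. *Pecam1* of endothelium was higher as well, at 2.96 and 2.34 times. *Pecam1* had 6, 6 and 22 counts in control cells and 6, 8 and 19 counts in activated cells. *Cd68* of leukocytes was lower in replicate 3, at 0.558 and 0.562 times the others. The sums for endothelium and leukocytes did not exceed 1.26 and 1.24 CPM, the acinar list had 1 of 5 genes in the table, *Amy2a5*, at or under 0.115 CPM, and *Sox9*, *Vim*, *Cdh5* and *Itgam* did not exceed 3 counts. The part of these markers in the *Sat1* difference was not tested.

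Because *Odc1* and *Amd1* on the one side and *Sat1* on the other differed in direction in replicate 3, their promoters are shown. RefSeq promoters (GRCm38.p6) were matched for 8 of the 10 members, without *Srm* and *Azin1*. The 250 bases before each start were searched on both strands for the E-box CACGTG, the cAMP response element TGACGTCA, the antioxidant response element core TGACNNNGC, the GC box GGGCGG, the CCAAT box CCAAT and the TATA box TATAAA. Over all 32851 promoter windows of that length, 6.02%, 1.55%, 10.2%, 32.7%, 33.8% and 12.4% held these motifs, in that order. Among the members, 7 had a GC box, *Sms* had an E-box, *Oaz1* and *Smox* had the antioxidant core, *Sms* and *Oaz1* had a CCAAT box, and 0 had a cAMP response element or a TATA box with these letters. *Sat1*, *Odc1* and *Amd1* were among the 7 members with a GC box, and any part of it in their levels was not tested. A match describes letters in this window and is not evidence of binding. The sequences run 5′ to 3′ on the strand of the gene, with GC boxes on either strand in capitals. *Sat1* covers chrX:155216450-155216699 (minus strand), *Amd1* covers chr10:40302189-40302438 (minus strand), both up to the base before the start. *Odc1* covers chr12:17544623-17544793 (plus strand), 171 bases that stop before the first annotated exon. All 3 lie outside annotated exons.
*Sat1*: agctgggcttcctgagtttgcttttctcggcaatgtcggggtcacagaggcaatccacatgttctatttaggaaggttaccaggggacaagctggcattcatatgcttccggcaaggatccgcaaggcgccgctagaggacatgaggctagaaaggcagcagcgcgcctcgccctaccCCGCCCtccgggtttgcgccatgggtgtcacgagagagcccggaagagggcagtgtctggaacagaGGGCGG
*Amd1*: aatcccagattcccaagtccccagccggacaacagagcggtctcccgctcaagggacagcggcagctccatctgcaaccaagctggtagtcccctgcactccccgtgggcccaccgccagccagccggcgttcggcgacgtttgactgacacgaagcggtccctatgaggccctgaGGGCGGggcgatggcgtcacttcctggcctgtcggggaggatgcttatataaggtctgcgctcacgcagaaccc
*Odc1*: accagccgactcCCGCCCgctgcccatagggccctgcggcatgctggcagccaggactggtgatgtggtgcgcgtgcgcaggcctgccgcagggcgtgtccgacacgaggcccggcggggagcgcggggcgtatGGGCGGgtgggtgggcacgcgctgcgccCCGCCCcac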

How the data were processed

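Libraries of MIN6 RNA were read on a BGISEQ-500 instrument. The submitters' processing notes name Bowtie2, RSEM, DESeq2 and GRCm38, without versions. The authors deposited an estimated count per gene and library without normalization, and these were rounded to whole numbers here. The authors also deposited FPKM values, which divide by gene length and library size, and the FPKM levels and ratios given here rest on them. A log2 fold change, p-value and q-value per gene from the authors' own comparison were deposited too and were not used. In R 4.3.3, edgeR 4.0.16 was used with filterByExpr, TMM and a robust quasi-likelihood fit on condition, with p-values adjusted over all 12516 tested genes. DESeq2 1.42.0, limma 3.58.1, other scalings, filters and pseudocounts, and fits without each library were alternatives. The code was tested on simulated data.

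Replicate 3 differences are log2 CPM (prior count 2) of replicate 3 minus the mean of replicates 1 and 2. Between same-numbered libraries, deviations from the condition means had correlations of 0.667, 0.671 and 0.869 across genes. Crossing replicates 1 and 2 gave 0.705 and 0.726. The correlations thus set replicate 3 apart and do not show how replicates 1 and 2 pair. The numbers, which come from the labels, were taken to pair the libraries, for replicates 1 and 2 from the labels alone. No libraries of a condition were duplicates by a chi-square test.

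The genes named were all members, *Thada*, from each further list every gene called in either fit and otherwise the 3 with the highest mean FPKM, *Azin2*, *Slc7a1* and *Myc* after their values were seen, and genes among the 5 closest to the member with the largest replicate 3 difference (mean of 5 CPM or more). Members and lists were chosen with earlier results of these data known. Gene positions are from GENCODE M21.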

Additional observations from a re-analysis of the deposited data

Results flagged for a closer look

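For 3 genes of the further lists, every comparison of replicate 3 with replicates 1 and 2 went one way in control cells and the opposite way in *Thada*-activated cells. The log2 difference was 0.155 in control and -0.0259 in activated cells for *Oat*, 0.0921 and -0.0541 for *Eif5a*, and 0.377 and -1.22 for *Amd2*. The *Amd2* values rest on 7 to 30 counts per library and how reads were shared with *Amd1* is not stated. The differences between conditions were not tested. With 3 libraries per condition, no library was tested for lying far from the others.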

How the results depend on the processing

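Over all genes, 0 were called without the block, 19 with it, 5 by the DESeq2 Wald test and 70 from replicates 1 and 2 alone with the block. Of the alternatives chosen after seeing the data, the DESeq2 Wald test with the block called 15 and replicate 3 as a batch term called 42. The members and the further pathway genes had 0 calls under every alternative run, so the block changed no call among them. Apart from *Thada* in the edgeR fit, it changed no other call of a single gene that the text reports. The totals over all genes did change with the block, as given above. With each library left out in turn, no gene was called, and the log2 fold change between conditions ranged from -1.16 to 1.31 for *Sat1*, -0.080 to 0.042 for *Odc1*, -0.16 to 0.10 for *Amd1*, -0.022 to 0.37 for *Srm*, -0.23 to 0.12 for *Oaz2* and -0.17 to 0.42 for *Paox*, all of which changed sign. *Azin1* (-0.24 to -0.013), *Oaz1* (0.091 to 0.20) and *Sms* (0.073 to 0.36) kept their direction, with sizes that depended on the library left out. *Oaz2* also turned from 0.0089 to -0.011 with the block, -0.112 in replicates 1 and 2 alone with the block, -0.0031 and -0.0034 with limma on log2(FPKM + 1) and log2(FPKM + 0.1), -0.015 with DESeq2 and the block and -0.011 with replicate 3 as a batch term, and the cause was not tested. The number of members split by replicate 3 was 7, where 35.9% of all tested genes were split upwards and 35.9% downwards. It was 8 without replicate 1, but that rule is easier to meet because fewer libraries have to be cleared. No share over all tested genes was computed for it, so the 8 has no background to be read against. The replicate 3 difference of each tested member kept its sign under each scaling tried. Members with the same sign in all 3 replicate numbers numbered 4, or 3 under 4 of 5 scalings. Depth limits *Smox*, *Amd2* and other genes at a few counts.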
